A study of Homo sapiens with 12 samples.

Results

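The messenger RNAs of 41 proteins of the large subunit of the human cytosolic ribosome, RPL3 to RPL41, were followed through 80S ribosome fractions and through the ribosomes pulled down from them. The genes were chosen by a list of Ensembl gene identifiers and not by a cut on a measured value. The list was chosen with earlier results of these data known. The list leaves out RPL12, the protein that was tagged, and the other proteins of the P-stalk. All 41 genes were found among the 57820 gene identifiers of each count table, and all 41 were among the 16920 genes that passed the filter on low counts.

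The 12 libraries came from HEK293, a widely used cell line derived from human embryonic kidney. Stable Flp-In T-Rex lines overexpressed FLAG/HA-tagged RPL12 in 1 of 3 forms, namely wild type (WT), S38A, in which a serine is replaced by alanine, or S38D, in which the same serine is replaced by aspartate. From 2 pooled 80S sucrose gradient fractions per line, 1 library was made from the fraction itself (input) and 1 from its anti-FLAG immunoprecipitate (IP), which gave 6 groups of 2 libraries. The series title names the question, which is how phosphorylation of RPL12 bears on translation in mitosis, but the labels give no cell cycle stage for these libraries. All lines carried the tagged transgene and went through hygromycin selection as colonies described as monoclonal, and the labels describe no removal of the cells' own RPL12. There was no IP from cells without a tag, so recovery through the tag and recovery by the beads alone cannot be told apart. Nothing in the labels says whether the 2 fractions of a line came from separate cultures, so each p-value reflects the spread between fractions, and that spread may be technical.

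A ribosomal protein is needed in step with its partners, and mammalian cells coordinate the supply largely at translation. The mRNAs typically begin with a cytosine followed by a run of pyrimidines, the 5′ terminal oligopyrimidine (TOP) motif, through which the mTOR pathway and the RNA-binding protein LARP1 switch them between translated and stored forms. These mRNAs are also short and abundant, so that a sizeable part of them can be found on single ribosomes.

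The motif is shown here because it is the known shared feature of these mRNAs. Each line gives 10 bases before the RefSeq transcription start site and 20 bases from it, 5′ to 3′ on the transcribed strand, in assembly GRCh38.p14. Capitals mark a run that begins with C at the start site and holds only C or T, of 5 bases or more. The first 9 genes carry such a run and cover the largest and the smallest IP changes described further on, and RPL17 is shown as a gene without one.
RPL13, chr16:89560672-89560701 (+): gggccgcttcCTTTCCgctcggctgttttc
RPL35, chr9:124861938-124861967 (-): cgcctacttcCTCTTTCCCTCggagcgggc
RPL18, chr19:48619159-48619188 (-): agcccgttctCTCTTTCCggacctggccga
RPL13A, chr19:49487598-49487627 (+): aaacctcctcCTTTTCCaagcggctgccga
RPL11, chr1:23691796-23691825 (+): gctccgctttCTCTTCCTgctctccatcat
RPL38, chr17:74203668-74203697 (+): aagtctcgttCTTTTTCgtccttttccccg
RPL41, chr12:56116623-56116652 (+): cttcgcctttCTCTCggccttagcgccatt
RPL22, chr1:6199576-6199605 (-): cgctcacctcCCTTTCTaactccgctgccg
RPL39, chrX:119791611-119791640 (-): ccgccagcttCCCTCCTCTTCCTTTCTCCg
RPL17, chr18:49492446-49492475 (-): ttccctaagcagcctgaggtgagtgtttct

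The promoter table used here held 33 of the 41 genes. The other 8 were not in it. A run of 5 or more bases, read on the transcribed strand, stood at an annotated start site of 23 of the 33 genes (69.7%), against 1404 of the 27305 named genes in the table (5.14%). Counted by start site, 23 of 45 sites of these genes held a run (51.1%), against 1429 of 35116 sites (4.07%). Of 25 small-subunit genes in the table, 19 held one (76.0%). The runs of the 23 genes were 5 to 19 bases long, with a median of 8. That of RPL39 was the longest and that of RPL41 was among the shortest.

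The inputs held 7434431 to 8723130 counts in genes and the IPs 3186164 to 7430881. Between 564 and 18647 counts fell on each of the 41 genes in an input, and between 241 and 18080 in an IP. RPL17 and RPL39 had the fewest. The part of counting error in the spread between fractions was not tested for single genes. Added ERCC spike-in RNA took 0.116% to 0.484% of an input library and 1.44% to 5.43% of an IP library, and the part of depth and of recovery in the results was not tested. The 5 HEK293 marker genes looked up were all detected, with a summed level of 478 to 688 normalised CPM (counts per 1000000 gene counts) in the inputs and 699 to 1260 in the IPs. Most of that sum was VIM, with 317 to 943 CPM. The 4 markers of other cell types summed to at most 12.3 CPM. Among them the leukocyte gene PTPRC had 0 counts in 7 libraries and at most 1 in the others. ALB reached at most 0.775 CPM and HBB 1.82. The fibroblast gene COL1A1 had 2.48 to 11.4 CPM, inside the range of the HEK293 marker NEFM, 1.98 to 15.2 CPM. The second S38A fraction stood apart for the large-subunit genes. All 41 had a lower level in its input than in the other S38A input, with a median log2 difference of -0.58, and all 41 a lower level in its IP, with a median of -0.47. The share of all genes lower in these libraries was not counted. The small-subunit genes went the same way, from 2.327% of the counts in the first S38A input to 1.536% in the second. In the S38A IPs they went from 3.152% to 2.435%.

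Together, the 41 mRNAs took a larger share of the counts after IP than before it in each of the 6 fractions. In the WT line the shares were 3.32% and 3.58% of the input counts and 4.62% and 5.66% of the IP counts. The S38A inputs held 3.03% and 2.03%, and the IPs made from them 4.12% and 3.12%. In the S38D line the inputs held 3.05% and 3.02% and the IPs 5.03% and 5.14%. The IP was above its own input everywhere, but the second S38A IP lay below both WT inputs, so the ranges of all inputs and all IPs overlapped. Over the 6 fractions the inputs averaged 3.00% ± 0.525 (SD, n = 6) and the IPs 4.61% ± 0.898 (SD, n = 6). The ratio of IP share to input share was 1.39 and 1.58 in the WT fractions, 1.36 and 1.53 in the S38A fractions, and 1.65 and 1.70 in the S38D fractions. A share is relative to the other mRNAs of its library, and in these bulk fractions fewer cells or ribosomes carrying an mRNA and less of it per cell cannot be told apart.

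**Figure D1:**
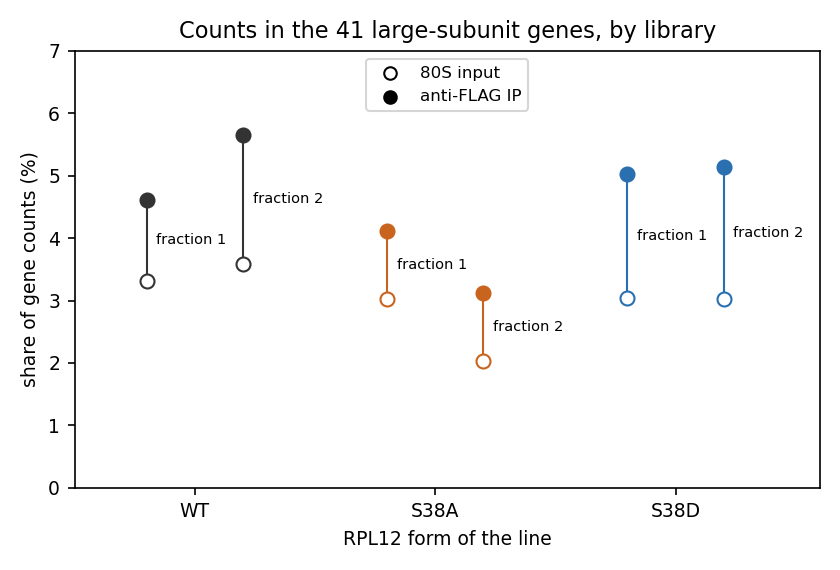
Share of all gene counts that fell on the 41 large-subunit genes (y axis, percent, from 0) in each input and IP library of the 3 lines (x axis). Points are libraries and lines join an IP to its own input. Every line rises, from 2.03% to 3.12% in the second S38A fraction at the bottom and from 3.58% to 5.66% in the second WT fraction at the top.

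The first comparison asked which of these mRNAs were richer on ribosomes recovered through tagged RPL12 than in the 80S fraction they came from, averaged over the 3 lines. All 41 rose, by 1.26-fold (RPL39) to 2.19-fold (RPL13), with a median log2 change of 0.81, or 1.76-fold. The call was an adjusted p under 0.05 in edgeR's quasi-likelihood test, adjusted by Benjamini-Hochberg over all 16920 genes, and 15.9% of all genes were called higher in the same test. The median of all genes tested was -0.04, and 4.08% of them had a change at or above the median of the 41. Most of the 41 are abundant, and 40 of them were among the 2646 genes with a mean of at least 100 CPM. Of the 2564 genes above that level that were in none of the ribosomal and TOP gene lists, 1104 were called higher (43.1%), with a median of 0.23, so much of the abundant transcriptome rose as well, though by less. Only RPL13, RPL35, RPL19 and RPL18 rose at least 2-fold. In each of the 6 fractions the median of the 41 was above 0, between 0.56 and 1.01, while that of all genes tested lay between -0.06 and 0.00.

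**Figure D2:**
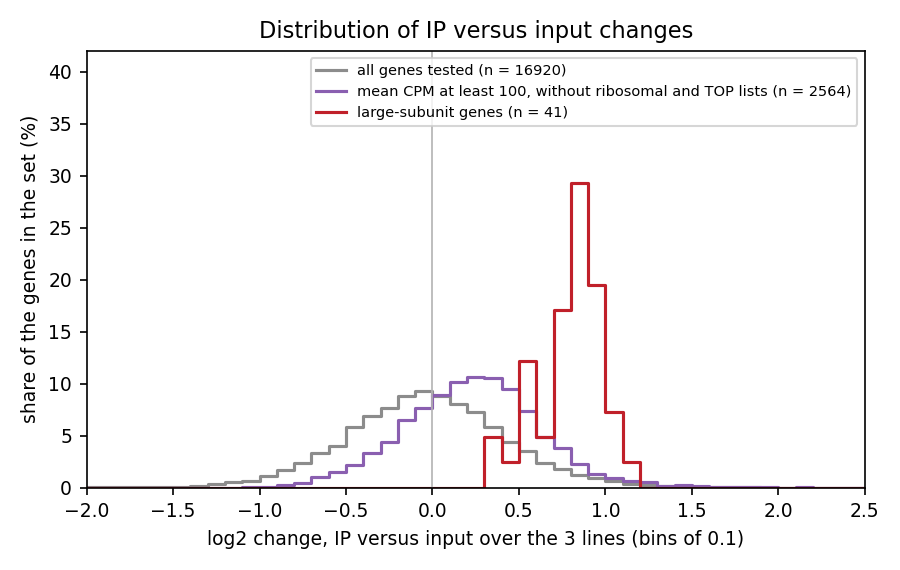
Distribution of the log2 change from input to IP averaged over the 3 lines (x axis, bins of 0.1), as a share of the genes of each set (y axis, percent). Grey is all 16920 genes tested, purple the 2564 genes of at least 100 CPM outside the ribosomal and TOP lists, and red the 41 large-subunit genes, which lie between 0.33 and 1.13 with a median of 0.81.

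Levels are given as normalised CPM, that is, CPM with the library size scaled by edgeR's TMM factors, always in the order first and second WT, first and second S38A, first and second S38D fraction. They compare a gene between libraries, not genes with each other. RPL13 (ENSG00000167526.9), a protein of the solvent-exposed side, had 950, 832, 668, 605, 818 and 647 in the inputs. In the IPs it had 1856, 2334, 1369, 1117, 1895 and 1461. Every IP lay above every input, and both S38A libraries were at the low end in the IPs. RPL13 rose 2.19-fold (log2 change 1.13, SE 0.125, adjusted p = 0.000147 in edgeR's quasi-likelihood test), the largest change of the 41.

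Among the proteins at the rim of the exit tunnel, where nascent chains leave and the signal recognition particle docks, RPL35 (ENSG00000136942.10) changed most. Its inputs had 396, 436, 337, 221, 342 and 339 normalised CPM. Its IPs had 796, 973, 612, 442, 791 and 817. The lowest IP, from the second S38A fraction, was just above the highest input, so the groups did not overlap. RPL35 rose 2.12-fold (log2 change 1.08, SE 0.129, adjusted p = 0.000199 in edgeR's quasi-likelihood test). The other rim proteins rose by a log2 change of 0.93 (RPL23A), 0.73 (RPL31) and 0.59 (RPL26).

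In the wall of the exit tunnel, RPL39 (ENSG00000198918.7), a very short protein of the narrow lower tunnel, and RPL17 (ENSG00000265681.2), which reaches into the tunnel near its exit, had the smallest changes of all 41. RPL39 had 107, 131, 91.2, 75.6, 103 and 107 normalised CPM in the inputs and 137, 158, 101, 95.6, 138 and 145 in the IPs. Each IP was above its own input, but both S38A IPs lay below the highest input. RPL39 rose 1.26-fold (log2 change 0.33, SE 0.0925, adjusted p = 0.0168 in edgeR's quasi-likelihood test). This call was lost in 4 of the leave-one-out fits, with an adjusted p of 0.0591 without the first WT input, 0.0598 without the second S38A input, 0.0505 without the first S38D input and 0.0583 without the first S38A IP.

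RPL17 had 70.7, 76.3, 63.5, 58.1, 73.5 and 66.7 normalised CPM in the inputs and 91.6, 99.7, 72.6, 68.2, 89.1 and 102 in the IPs. Its S38A IPs were likewise inside the range of the inputs, and its WT and S38D IPs above it. RPL17 rose 1.27-fold (log2 change 0.35, SE 0.0858, adjusted p = 0.00883 in edgeR's quasi-likelihood test). The RefSeq gene table also lists a read-through gene, RPL17-C18orf32, that shares its exons, so reads could be split between both genes. RPL4, the third wall protein, rose by a log2 change of 0.81.

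RPL5 and RPL11 carry 5S rRNA into the large subunit and, outside the ribosome, bind the p53 regulator MDM2. RPL5 (ENSG00000122406.8) had 1217, 1460, 1111, 754, 1107 and 1174 normalised CPM in the inputs and 3508, 2617, 1735, 1183, 2310 and 2695 in the IPs. The first WT IP was the highest and the second S38A IP the lowest of its IPs, and the latter lay among the inputs. RPL5 rose 1.99-fold (log2 change 0.99, SE 0.147, adjusted p = 0.000517 in edgeR's quasi-likelihood test). For RPL11 (ENSG00000142676.8) the inputs had 845, 953, 751, 507, 788 and 840 normalised CPM and the IPs 1270, 1493, 1045, 754, 1385 and 1606. It rose 1.59-fold (log2 change 0.67, SE 0.131, adjusted p = 0.00228 in edgeR's quasi-likelihood test). The difference between the changes of RPL5 and RPL11 was not tested.

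Of the proteins around the catalytic centre, RPL3 reaches towards the peptidyl transferase centre, RPL8 lies close by, and RPL10 joins late in assembly next to the P site. RPL3 (ENSG00000100316.11) had 1181, 1319, 1153, 802, 1071 and 1095 normalised CPM in the inputs and 2445, 2382, 1673, 1396, 2263 and 2569 in the IPs. Every IP was above every input, with the S38A libraries lowest. RPL3 rose 1.89-fold (log2 change 0.92, SE 0.121, adjusted p = 0.00031 in edgeR's quasi-likelihood test), and the changes of RPL8 and RPL10 were 0.92 and 0.87. RPL3, RPL8, RPL13 and RPL35 were the only members with every IP above every input across lines, 4 of 41, where 6.15% of all genes tested had such a separation.

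At the interface with the small subunit, RPL19, RPL24, RPL30 and RPL41 contribute to bridges between the subunits. RPL19 (ENSG00000108298.5) had 1197, 1376, 1090, 574, 1068 and 1103 normalised CPM in the inputs and 2935, 2609, 1693, 1076, 2507 and 2867 in the IPs. Its second S38A fraction was far below the others on both sides. RPL19 rose 2.07-fold (log2 change 1.05, SE 0.167, adjusted p = 0.000726 in edgeR's quasi-likelihood test). RPL41 (ENSG00000229117.4), the shortest ribosomal protein, had 354, 413, 304, 207, 346 and 276 normalised CPM in the inputs and 509, 596, 370, 293, 555 and 475 in the IPs. Both its S38A IPs lay inside the range of the inputs. It rose 1.46-fold (log2 change 0.54, SE 0.125, adjusted p = 0.00591 in edgeR's quasi-likelihood test), while RPL24 and RPL30 rose by log2 changes of 0.70 and 0.59.

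RPL10A (ENSG00000198755.6) forms the mobile L1 stalk beside the E site. It had 700, 752, 610, 398, 614 and 624 normalised CPM in the inputs and 1249, 1405, 973, 689, 1224 and 1395 in the IPs. All its IPs except that of the second S38A fraction were above all inputs. RPL10A rose 1.85-fold (log2 change 0.89, SE 0.132, adjusted p = 0.000511 in edgeR's quasi-likelihood test). RPL38 (ENSG00000172809.8), known from mouse embryos in which its loss alters translation of Hox mRNAs, had 382, 415, 324, 214, 329 and 335 in the inputs and 658, 786, 496, 364, 665 and 692 in the IPs. Again the second S38A IP alone fell inside the range of the inputs. RPL38 rose 1.81-fold (log2 change 0.86, SE 0.125, adjusted p = 0.000471 in edgeR's quasi-likelihood test).

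RPL22 (ENSG00000116251.5), an RNA-binding protein on the outer surface that many cells can do without, had the smallest change after RPL39 and RPL17. Its inputs had 574, 728, 573, 430, 601 and 642 normalised CPM and its IPs 788, 963, 708, 521, 900 and 1045. Both S38A IPs were below the highest input. RPL22 rose 1.37-fold (log2 change 0.46, SE 0.126, adjusted p = 0.0154 in edgeR's quasi-likelihood test), and the call did not hold when the first WT input (adjusted p = 0.0533) or the first S38A IP (adjusted p = 0.0564) was left out. RPL15, at 0.57, had the largest SE of the 41, 0.179. The remaining proteins, most of them on the solvent side, rose by between 0.57 (RPL37) and 1.00 (RPL18), with RPL28 at 0.98 and RPL13A, which also acts in a repressor complex of inflammatory mRNAs, at 0.97.

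**Figure D3:**
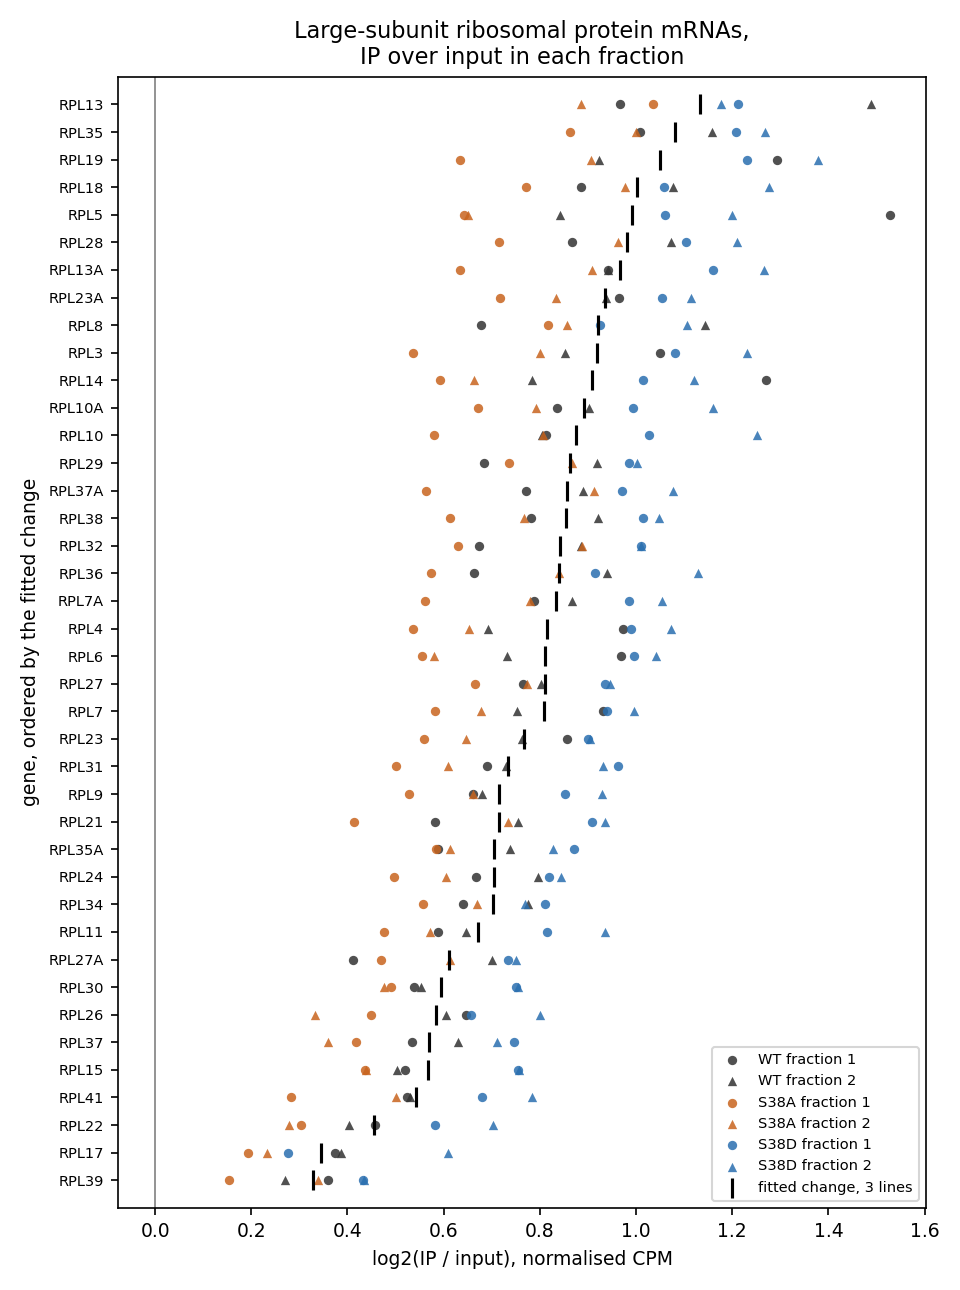
Log2 ratio of normalised CPM in each IP to that in its own input (x axis) for 40 of the 41 large-subunit genes (y axis, ordered by the change averaged over lines), with 1 point per fraction, 1 colour per line and a black tick at the change fitted over the 3 lines. All 240 points lie above 0, from 0.15 for RPL39 in the first S38A fraction to 1.53 for RPL5 in the first WT fraction.

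The order of the 41 genes recurred from fraction to fraction. Ranked by the IP to input ratio within a fraction, RPL35 held a rank of 1 to 5 in every fraction and RPL13 one of 1 to 9. At the other end RPL22 ranked 38 to 40, RPL17 40 to 41 and RPL39 38 to 41. Between 2 fractions the Spearman correlation of the ratios over the 41 genes was 0.604 to 0.933, with a median of 0.832 over 15 pairs, and 0.604 to 0.925 over the 12 pairs from different lines. The 2646 genes of at least 100 CPM gave 0.571 to 0.951 over the same pairs, so a repeated order was not a property of the ribosomal genes alone. These correlations describe genes, which share library preparation, abundance and mapping and are not independent replicates.

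The IP change was set beside the TOP run, as a description. Its median was 0.83 in the 23 genes with a run, 0.81 in the 10 genes in the table without one, and 0.86 in the 8 genes that the table did not hold. A run was read only from the annotated start base, so one that begins a few bases away was scored as none. RPL4 and RPL10A, for example, were scored as none and hold C and T stretches shortly after that base. The 10 genes thus cannot be taken to lack the motif, and the split cannot show whether the change goes with it. RPL39, with the longest run, had the smallest change. The change went with the mean raw count of a gene, with a Spearman correlation of 0.404 and a Pearson correlation of 0.569 over the 41 genes, which share libraries and mapping. RPL17 and RPL39, with mean counts of 500.4 and 742.2 per library, were the genes of fewest counts. The RefSeq table named 5 to 137 pseudogenes per gene, with a median of 20, and the change had a Spearman correlation of -0.219 with that number. RPL21 had the most, 137, followed by RPL23A with 95 and RPL7A with 80. RPL17 had 52 and RPL39 had 40, and reads of a gene with near-identical copies may be lost from a count of uniquely placed reads.

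The next comparison asked for the change from input to IP within each line. In the WT line 23 of the 41 genes rose, where 5.77% of all genes were called higher, and the median of the 41 was 0.81, between 0.31 (RPL39) and 1.23 (RPL13). Of the 2564 genes of at least 100 CPM outside the ribosomal and TOP lists, 18% were called higher in the WT line. RPL13 rose 2.35-fold there (log2 change 1.23, SE 0.217, adjusted p = 0.00833 in edgeR's quasi-likelihood test). RPL5 rose 2.29-fold (log2 change 1.19, SE 0.256, adjusted p = 0.0154 in edgeR's quasi-likelihood test), and RPL19 rose by a log2 change of 1.11 with an adjusted p of 0.0303. At the low end RPL22 at 0.43, RPL17 at 0.38 and RPL39 at 0.31 did not pass. In the WT libraries alone all 41 genes had both IPs above both inputs, as did 24.0% of all genes. The count rested on the libraries. It was 0 without the first or the second WT input, where 0.348% and 0.00% of all genes were called higher, 3 without the first WT IP (1.32% of all genes), 8 without the second WT IP (9.31%), and 14 without any 1 of the 4 S38D libraries (4.24% to 4.46%). With the fraction as a block, which sets each IP against its own input, 40 of the 41 were called, where 14.0% of all genes were called higher.

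In the S38D line 28 of the 41 genes rose, where 3.13% of all genes were called higher, with a median of 1.01, or 2.01-fold. Of these, 20 rose at least 2-fold. The share of all genes called at that fold was not counted. Called or not, 3.04% of all genes tested had a change at or above the median of the 41. Among the 2564 genes of at least 100 CPM outside the ribosomal and TOP lists, 9.87% were called higher in the S38D line. RPL19 had the largest change, 2.48-fold (log2 change 1.31, SE 0.29, adjusted p = 0.0308 in edgeR's quasi-likelihood test). RPL35 rose 2.36-fold (log2 change 1.24, SE 0.224, adjusted p = 0.0219 in edgeR's quasi-likelihood test) and RPL13A 2.32-fold with an adjusted p of 0.0273. RPL22, RPL17 and RPL39 were again lowest, at 0.65, 0.44 and 0.43, and did not pass. All 41 had both S38D IPs above both S38D inputs, as did 25.7% of all genes. Without any 1 of the 4 S38D libraries the count was 0, where 0.00% to 0.0228% of all genes were called higher, and without the first or the second WT input it was 12, where 1.5% and 1.46% were. With the fraction as a block all 41 were called, where 10.7% of all genes were.

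In the S38A line 0 of the 41 genes passed edgeR's quasi-likelihood test, as did 0.00% of all genes. At an unadjusted p under 0.05 there were 33 of the 41, where 7.39% of all genes were higher at that level. The median was 0.62, and the lowest adjusted p was 0.137, for RPL13, with a log2 change of 0.97 and an SE of 0.216. RPL35 and RPL18 had changes of 0.92 and 0.85, and RPL22, RPL39 and RPL17 of 0.29, 0.24 and 0.21. The median was 0.34 without the second S38A input, 0.33 without the first S38A IP and 0.95 without the first S38A input. The count at an unadjusted p under 0.05 moved with it, so both rested on single libraries in this fit. The fit does not pair an IP with its own input. Set against their own inputs, the 2 S38A fractions had medians of 0.56 and 0.68. Of the 41 genes, 32 had both S38A IPs above both S38A inputs, as did 24.7% of all genes. Each S38A IP was above its own input for all 41 genes, and with the fraction as a block 38 of the 41 were called, where 5.92% of all genes were called higher. DESeq2 called 14 of the 41 and 2.08% of all genes higher, and limma's voom with quality weights called 0.

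The WT and S38D comparisons contrast different libraries. Both were drawn from the fit of all 12 libraries, with a shared filter and a shared estimate of spread, so their calls are not independent. Of the 41 genes, 22 were called in both, RPL34 in WT alone, RPL9, RPL10, RPL11, RPL21, RPL26 and RPL31 in S38D alone, and 12 in neither. With the fraction as a block 40 were called in both lines and RPL39 in S38D alone, so this division belongs to the fit without the block. The changes in the 2 lines had a Spearman correlation of 0.934 and a Pearson correlation of 0.927 over the 41 genes, which share the annotation, mapping and abundance. The median SE of a change within a line was 0.228, and differences between genes were not tested.

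**Figure D4:**
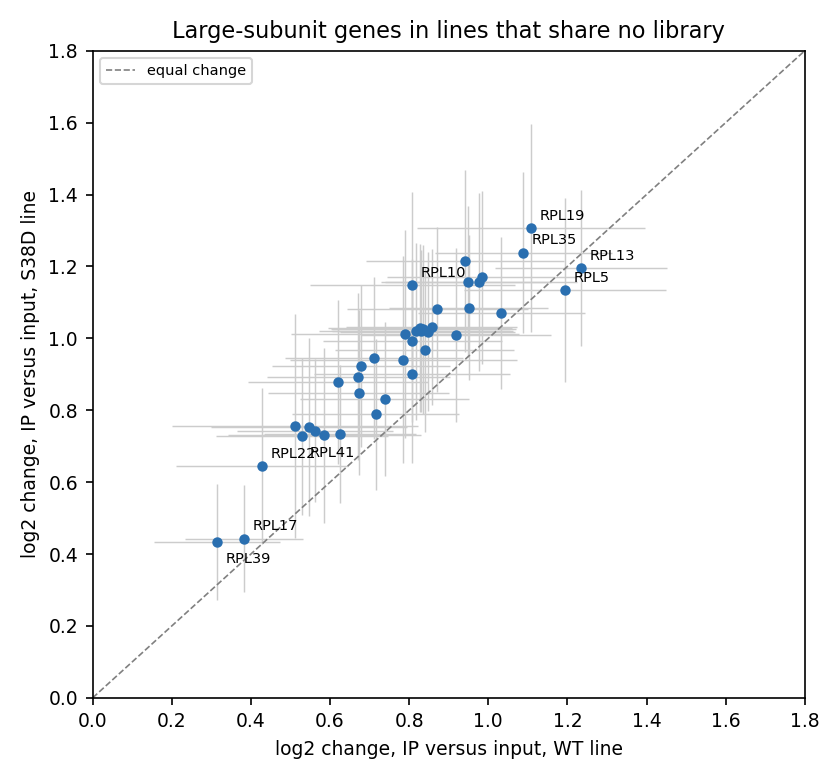
Log2 change from input to IP in the WT line (x axis) against that in the S38D line (y axis) for 40 of the 41 large-subunit genes, with bars of 1 SE on both axes and a dashed line of equal change. RPL39 and RPL17 lie at the lower left, below 0.45 in both lines, and RPL13, RPL5, RPL19 and RPL35 at the upper right, above 1.05 in both.

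Whether the change from input to IP differed between lines was tested as an interaction, in which the log2 change of 1 line is subtracted from that of another. No gene passed in any of the 3 pairs in edgeR's quasi-likelihood test, of the 41 or of all genes (0.00% called), and the lowest adjusted p among the 41 was 1 in each. At an unadjusted p under 0.05, 0 of the 41 passed in each pair, against 393, 134 and 109 of all genes for S38A against WT, S38D against WT and S38D against S38A. The SE of these differences was 0.21 to 0.437, with a median of 0.321, in the fit without the block. In that fit, which does not pair an IP with its own input, a difference of the size seen was not detectable at this number of libraries. The block changed no call on an interaction.

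For S38A against WT all 41 differences were below 0, from -0.55 (RPL5) to -0.02 (RPL29), with a median of -0.15, against 0.05 for all genes. Below 0 were also 7398 of all 16920 genes and 1472 of the 2564 abundant genes outside the ribosomal and TOP lists. Of the small-subunit genes 30 of 31 were below 0, with a median of -0.14. RPL5, RPL14 and RPL19 were at the low end with -0.55 (SE 0.358), -0.41 (SE 0.295) and -0.37 (SE 0.404). RPL29, RPL27A and RPL30 were nearest to 0, at -0.02, -0.03 and -0.06. In the fit without the block, the median of the 41 ran from -0.45 to 0.17 when 1 library was left out. Its sign in that fit hung on single libraries. Leaving out 1 library there sets its partner against the other fraction. With each IP set against its own input, the fraction medians were 0.75 and 0.80 in WT and 0.56 and 0.68 in S38A. The difference between these was not tested.

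For S38D against S38A all 41 differences were above 0, with a median of 0.34 (all genes -0.02), from 0.18 (RPL8) to 0.57 (RPL19, SE 0.404). RPL3 at 0.51 (SE 0.294) and RPL5 at 0.49 (SE 0.358) followed RPL19. Above 0 were also 7915 of all 16920 genes and 1796 of the 2564 abundant genes outside the ribosomal and TOP lists. Of the small-subunit genes 30 of 31 were above 0, with a median of 0.315. For S38D against WT 39 of the 41 were above 0, with a median of 0.19 (all genes 0.02), from -0.06 (RPL5) to 0.34 (RPL10, SE 0.364). RPL13 was the other gene below 0, at -0.04. For S38D against WT 8846 of all 16920 genes were above 0, and all 31 small-subunit genes, with a median of 0.20. In the fit without the block both medians of the 41 hung on single libraries too. Set against their own inputs, the S38D fractions had medians of 0.96 and 1.01. For S38D against S38A the median was 0.02, with 24 genes above 0, when the first S38A input was left out, 0.14 without the second S38A IP, 0.62 without the second S38A input and 0.60 without the first S38A IP. For S38D against WT it was 0.02, with 28 genes above 0, without the first WT IP, 0.09 without the second WT input and 0.30 without the second WT IP. These pairs share libraries, so their signs are not separate evidence.

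The inputs alone asked whether the lines differed in how much of these mRNAs sat in the 80S fraction, before any IP. In a fit of the 6 inputs over 16728 genes, 0 of the 41 passed for S38A against WT in edgeR's quasi-likelihood test, as did 0.00% of all genes. All 41 were lower in S38A, with a median of -0.50, or 0.705-fold (all genes -0.02), from -0.69 (RPL27) to -0.18 (RPL15), and the lowest adjusted p was 0.199. Of all genes 8704 of 16728 were lower. The shift was not particular to the large-subunit genes. All 31 small-subunit genes tested were lower (median -0.52), as were all 4 stalk genes (-0.62) and all 7 other TOP genes (-0.46). Among the 41, the counts were as follows. At an unadjusted p under 0.05 there were 33 of the 41, where 6.48% of all genes were lower at that level. That count fell when the second WT input or the second S38A input was left out, with medians of -0.45 and -0.25. DESeq2 called 9 of the 41 and 1.14% of all genes lower.

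RPL27 (ENSG00000131469.8) had 656 and 769 normalised CPM in the WT inputs, 564 and 308 in the S38A inputs, and 587 and 628 in the S38D inputs. RPL13A (ENSG00000142541.12) had 1504 and 1756, 1255 and 767, and 1277 and 1383 in the same order. For both genes the WT inputs were the highest, the first S38A input lay just below the S38D inputs, and the second S38A input was far below the others. RPL15 (ENSG00000174748.14) had 974 and 1212, 1232 and 664, and 1063 and 992, so that its first S38A input was the highest of all inputs and its second the lowest. Over the 41 genes, 39 had both S38A inputs below both WT inputs, as did 25.8% of all genes, and 35 had both S38D inputs below both WT inputs, as did 18.0% of all genes. Without the first S38A input 31 of the 41 were called lower than in WT, as were 1.12% of all genes, with a median of -0.85. Without the second none was called, with a median of -0.25.

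**Figure D5:**
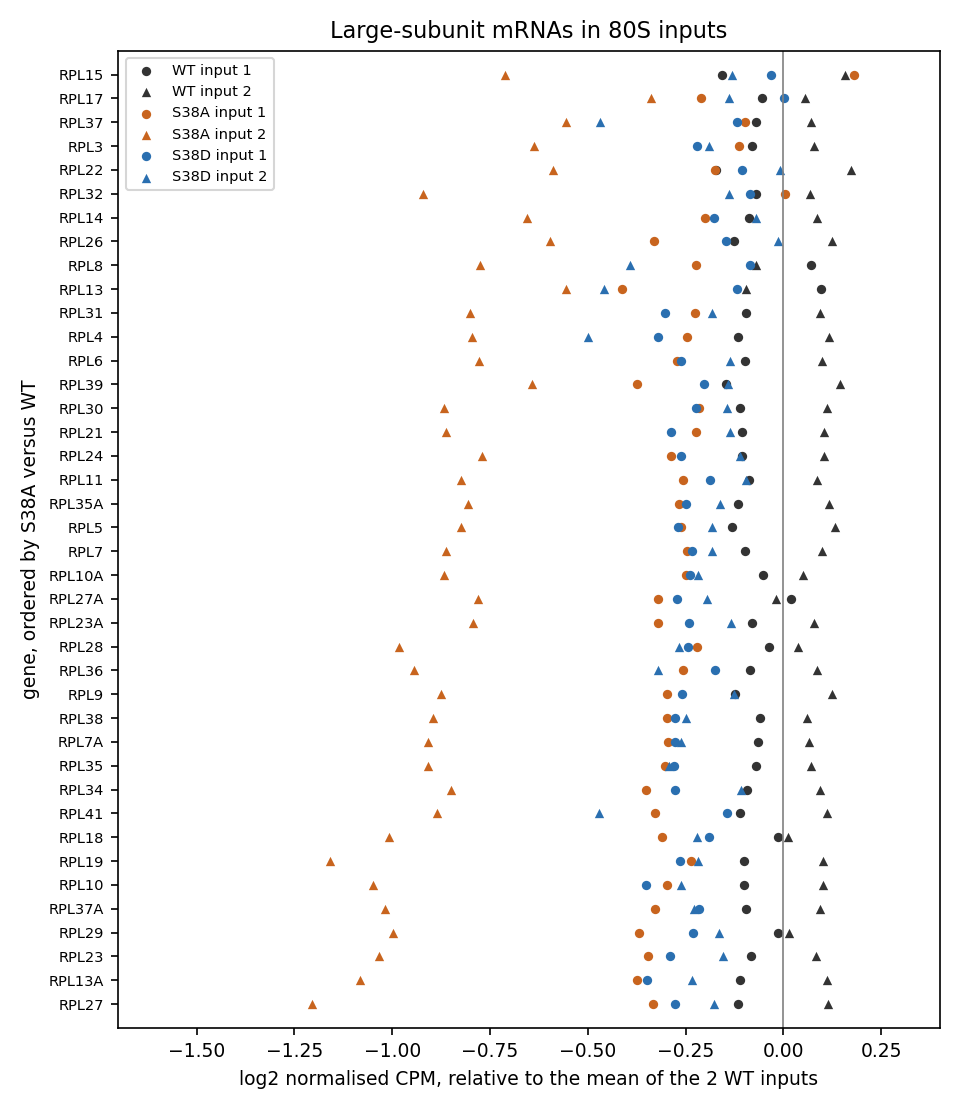
Log2 normalised CPM of 40 of the 41 large-subunit genes (y axis, ordered by S38A against WT) in the 6 inputs, relative to the mean of the 2 WT inputs (x axis). Colours are lines and shapes the first and second fraction. The second S38A input (orange triangles) lies to the left of the first for all 40 genes.

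For S38D against WT the inputs gave 0 calls among the 41 in edgeR's quasi-likelihood test, where 0.00598% of all genes, a single gene, were called, with 0 of the 41 at an unadjusted p under 0.05. All 41 were lower in S38D, with a median of -0.20 (all genes -0.01), from -0.39 (RPL4, SE 0.219) to -0.05 (RPL22, SE 0.185). The median was -0.12, with 3 genes above 0, without the second WT input and -0.27 without the first. For S38D against S38A there were again 0 calls among the 41, where 0.00598% of all genes were called, with 2 of the 41 at an unadjusted p under 0.05, where 3.77% of all genes were, so that count is near the background. All 41 were higher in S38D, with a median of 0.31 (all genes 0.00). RPL27 was at the upper end with 0.48 (SE 0.249) and RPL37 at the lower end with 0.03 (SE 0.207). Without the second S38A fraction that median was 0.06, and 31 of the 41 were above 0.

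Among the IPs, 39 of the 41 genes had both S38A libraries below both WT libraries, as did 23.1% of all genes, and 40 had them below both S38D libraries, as did 21.6% of all genes. None of the 41 had both WT IPs below both S38D IPs, as did 16.1% of all genes. The order of the IPs thus followed that of the inputs for S38A.

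Other mRNAs of the translation machinery were read from lists of identifiers. Of 32 small-subunit genes listed, 31 could be tested, and 30 rose from input to IP over the 3 lines in edgeR's quasi-likelihood test, with a median of 0.80 beside the 0.81 of the large-subunit genes. RPS10 was the exception, at 0.21 with an adjusted p of 0.246. All 4 stalk genes, RPL12 included, rose, with a median of 0.91, and reads of the RPL12 transgene and of the cells' own gene cannot be told apart. Of 8 other TOP genes, which encode elongation factors and similar proteins, 7 could be tested and 7 rose, with a median of 0.72. Within the WT line 19 of 31 small-subunit genes, 3 of 4 stalk genes and 0 of 7 other TOP genes passed, and within the S38D line 24 of 31, 4 of 4 and 4 of 7. In the inputs all 31 small-subunit genes were lower in S38D than in WT, with a median of -0.20. All 31 were higher in S38D than in S38A, with a median of 0.32.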

How the data were processed

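RNA was measured in 12 libraries of polyA RNA from 80S fractions and their anti-FLAG immunoprecipitates. The authors deposited whole-number read counts per Ensembl gene identifier for each library. The tools named, per the submitters' processing notes, were STAR 2.4.2a, bcl2fastq 2.16.0.10 and DESeq2, with build hg19. How reads were counted, on which annotation and with which strand setting is not stated in the sources, so overlapping and antisense genes may share reads.

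Counts were tested with edgeR 4.0.16 (R 4.3.3; quasi-likelihood, TMM, filterByExpr with a minimum count of 10, Benjamini-Hochberg at 0.05). A fit of all 12 libraries (16920 genes) gave the IP comparisons and interactions, and a fit of the 6 inputs (16728 genes) the input comparisons. SEs are the log2 change divided by the square root of F. The scripts were tested on simulated data. Alternatives were other scalings, filters, DESeq2 1.42.0, limma 3.58.1 voom, a fraction block, the groups compared alone, each library left out and, chosen after seeing the data, the second S38A fraction left out.

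IP and input with 1 number come from 1 fraction, per the labels' protocols, and their deviations correlated at 0.281, 0.644 and 0.543 in WT, S38A and S38D. Numbers do not pair lines.

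The members and lists were chosen with earlier results of these data known. Members were named from the order of the identifier list. Of 59792 genes listed by RefSeq, 0 carry an Ensembl identifier, so the identifiers of the other lists were entered by hand from general knowledge. Named genes were the 3 highest and 3 lowest members of each comparison, plus the role groups' members. Protein and coding lengths were not analysed here. Promoter sequences are from RefSeq (GRCh38.p14), another build than the counts. Of the 41 genes, 1 is not reported here by name and is left out of the plots of single genes.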

Additional observations from a re-analysis of the deposited data

How the results depend on the processing

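Over the 3 lines, 36 to 41 of the 41 genes were called higher in the IP under all alternatives, and all 41 changes were above 0 in each. The 36 came from scaling by total counts, which moved the median of all genes from -0.04 to -0.25 and that of the 41 from 0.81 to 0.60. Relative to all genes the median of the 41 was 0.85 in both. It ended 5 calls, those of RPL37 (adjusted p = 0.0508), RPL15 (0.114), RPL22 (0.122), RPL17 (0.261) and RPL39 (0.348). Without a filter RPL17 (0.0526) and RPL39 (0.0572) were lost, and without the second S38A fraction RPL39 (0.0777). The counts within lines are given with the share of all genes called in the same direction. For WT, the 23 calls became 8 with total counts (2.86% of all genes), 35 with DESeq2 (11.3%), 6 with voom and quality weights (2.56%), 40 with the replicate block (14.0%) and 0 with only the groups compared (0.00%), and 0 to 28 with 1 library left out (0.00% to 9.31%). For S38A, the 0 calls became 14 with DESeq2 (2.08%), 20 without a filter (0.701%) and 38 with the replicate block (5.92%), and 0 to 0 with 1 library left out (0.00% to 0.303%). For S38D, the 28 calls became 0 to 34 with 1 library left out (0.00% to 6.58%). For the S38A against WT inputs, the 0 calls became 9 with DESeq2 (1.14%), 29 without a filter (1.11%) and 0 to 31 with 1 library left out (0.00% to 1.12%). The replicate block moved the S38D count to 41 (10.7%) and changed no call on an interaction, and input numbers did not pair lines.

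No reversed value was past the threshold in either fit. A scaling moves all genes together: total counts took the median of all genes from 0.05 to 0.19 for the IP change of S38A against WT, and spike-in scaling took it from 0.00 to -0.40 for S38D against S38A inputs, while the median of the 41 relative to it was -0.21 in both fits of the former and 0.30 and 0.37 in those of the latter. For the IP change of S38A against WT, RPL29 turned to 0.12 with total counts, 0.017 with voom and 0.022 without a filter, RPL27A to 0.11, 0.00075 and 0.011, and RPL30 to 0.070 with total counts. Between inputs, RPL15 turned to 0.20 for S38A against WT without the second S38A fraction. For S38D against S38A inputs, RPL15, RPL4 and RPL37 turned to -0.18, -0.26 and -0.33 with spike-in scaling and to -0.26, -0.16 and -0.19 without the second S38A fraction. With 1 library left out, ranges that crossed 0 were, for S38A against WT, RPL29 -0.32 to 0.33, RPL27A -0.24 to 0.22, RPL30 -0.47 to 0.30 and RPL19 -0.76 to 0.16. For S38D against WT they were RPL14 -0.11 to 0.16, RPL13 -0.24 to 0.14 and RPL5 -0.25 to 0.12, and for S38D against S38A RPL34 -0.088 to 0.41 and RPL8 -0.13 to 0.46. In the inputs they were RPL15 -0.70 to 0.20 for S38A against WT, RPL22 -0.20 to 0.12, RPL17 -0.13 to 0.028 and RPL26 -0.17 to 0.055 for S38D against WT, and RPL15 -0.26 to 0.63, RPL4 -0.16 to 0.39 and RPL37 -0.19 to 0.27 for S38D against S38A. The cause of these changes was not tested, beyond the fewer libraries in each. Each group holds 2 libraries, and the part of depth in the precision was not tested.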

Other observations

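Some of the large-subunit genes have a second, diverged gene, and 5 of 7 such paralogues listed could be tested. Of these, 4 rose from input to IP over the 3 lines in edgeR's quasi-likelihood test, with a median of 0.42. RPL36AL rose by a log2 change of 0.74 (SE 0.0972, adjusted p = 0.000296) and RPL39L by 0.57 (SE 0.194, adjusted p = 0.041) in edgeR's quasi-likelihood test. RPL39, the main gene of the latter, had 0.33, and the difference between them was not tested. RPL22L1 rose by 0.33 (SE 0.0955, adjusted p = 0.0201) and RPL26L1 by 0.42 (SE 0.149, adjusted p = 0.0475) in the same test. RPL7L1, which takes part in ribosome assembly, had 0.07 with an adjusted p of 0.64. RPL39L had 27 to 201 counts per library, below the lowest count of any of the 41 genes, 241.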
